A study of Mus musculus with 15 samples.

Results

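The colony-stimulating factor (CSF) axis was taken as 6 genes chosen by name out of the 46679 genes in the files: the receptor Csf1r, its ligands Csf1 and Il34, the cytokine Csf2, and the receptor chains Csf2ra and Csf2rb. All 6 were among the 17481 genes that passed the filter on low counts. RNA was sequenced from whole pieces of naïve brain and of end-stage tumors from C57BL/6 mice, with 3 mice in each of 5 groups. The tumors grew from CT2A, GL261, 005 or Mut3 cells placed in the right hemisphere of mice aged 6 to 8 weeks. CT2A and GL261 are chemically induced lines kept in serum, whereas 005 and Mut3 came from genetically engineered mice and were kept in medium with EGF and FGF-2. All 4 lines carried GFP and firefly luciferase. The inoculum was 100000 cells for CT2A, GL261 and 005 and 500000 cells for Mut3, so that line and dose cannot be told apart for Mut3. Whether the naïve mice had any surgery is not given in the sources used here.

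CSF1R (CD115) is the receptor tyrosine kinase that microglia, monocytes and macrophages need for survival and proliferation. It has a pair of unrelated ligands, CSF1 (M-CSF) and IL-34, and in the adult brain IL-34 comes largely from neurons. CSF2 (GM-CSF) acts through another kind of receptor, in which the alpha chain CSF2RA binds the cytokine and the beta common chain CSF2RB signals through JAK2 and STAT5. In whole tissue, fewer cells of a type and less RNA per cell cannot be told apart.

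Promoter sequences (RefSeq, GRCm38.p6) were available in the sources used here for 3 of the 6 members, which are shown. Csf1r, Il34 and Csf2rb had none there and were not searched. The 3 members shown differ in a short motif related to the myeloid factor PU.1, which is encoded by Spi1. Each window runs 5′ to 3′ from 250 bases before the RefSeq start to 30 bases from it, and capitals mark GAGGAA or its reverse complement. Csf1 (chr3:107760440-107760719, minus strand) and Csf2 (chr11:54249870-54250149, minus strand) held 0 matches, and Csf2ra (chr19:61228389-61228668, minus strand) held 2, side by side just before the start. The RefSeq start of Csf2 lies upstream of the end of the gene in GENCODE.
Csf1: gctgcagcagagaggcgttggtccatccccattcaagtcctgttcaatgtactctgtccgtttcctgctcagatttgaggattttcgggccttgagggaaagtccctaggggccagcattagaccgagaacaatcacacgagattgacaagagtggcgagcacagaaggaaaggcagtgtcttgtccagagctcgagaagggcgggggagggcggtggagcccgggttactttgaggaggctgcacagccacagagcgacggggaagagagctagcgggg
Csf2: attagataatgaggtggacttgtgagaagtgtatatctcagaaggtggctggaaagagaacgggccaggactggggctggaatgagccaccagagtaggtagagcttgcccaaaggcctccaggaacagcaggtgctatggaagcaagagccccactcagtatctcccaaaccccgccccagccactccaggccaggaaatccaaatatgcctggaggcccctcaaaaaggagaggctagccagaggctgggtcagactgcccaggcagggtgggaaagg
Csf2ra: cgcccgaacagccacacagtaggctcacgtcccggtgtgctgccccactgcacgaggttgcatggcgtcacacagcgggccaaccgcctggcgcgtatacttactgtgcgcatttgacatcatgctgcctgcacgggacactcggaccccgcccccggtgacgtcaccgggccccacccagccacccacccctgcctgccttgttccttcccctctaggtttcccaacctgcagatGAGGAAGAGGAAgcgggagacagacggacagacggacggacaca
The motif was searched on both strands and occurred in 26.0% of 32851 windows of the same length, so its presence or absence in one window is a common state. A match is a description of letters and not of binding.

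On the GRCm38 build (GENCODE M21), Csf1r lies on chromosome 18 (61100598 to 61132149, plus strand), Csf1 on chromosome 3 (107741048 to 107760469, minus strand) and Il34 on chromosome 8 (110741829 to 110805924, minus strand). Csf2 is on chromosome 11 (54247271 to 54249667, minus strand), Csf2ra on chromosome 19 (61223957 to 61228429, minus strand) and Csf2rb on chromosome 15 (78325752 to 78353847, plus strand). Csf2rb has a paralog beside it, Csf2rb2 (chromosome 15, 78282507 to 78305721, minus strand), the mouse chain that serves the IL-3 receptor. Of the 7268 stretches of 50 bases in Csf2rb transcripts, 892 (12.3%) also occur in Csf2rb2, so reads could be split between the 2 genes and their values are uncertain. Csf1r overlaps Hmgxb3, and Il34 and Csf2 overlap antisense genes, all on the opposite strand. The strandedness of the libraries is not given in the sources used here, so reads of such partners cannot be told apart.

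Total counts ranged from 3105119 to 13130158 and were lowest in naïve brain. A count of 3, used as a floor, stood for 0.214 to 0.811 CPM (counts scaled to the library size) depending on the library, and this floor reflects only the error of counting. The mitochondrial share of counts was 14.97% to 24.0% in naïve brain and at most 17.8% in tumors, where the highest was 005 replicate 3, a library that lay nearer to naïve brain than to its own group in overall expression. The 7 neuron markers were present in every naïve library, with a summed level of 4295 to 5994 CPM. Levels are in CPM after TMM normalization unless TPM is named. A gene was called different when it changed at least 2-fold with an adjusted p (Benjamini-Hochberg) under 0.05 in edgeR's quasi-likelihood test over all samples. The 4 comparisons with naïve brain share the naïve libraries, and pairs of tumors share tumor libraries.

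Among the 5 groups, 5 of the 6 members differed at an adjusted p under 0.05 in the edgeR F test, as did 52.1% of all tested genes. The adjusted p was 5.04e-04 for Il34, 0.00171 for Csf1, 0.00378 for Csf2rb, 0.0180 for Csf1r and 0.0376 for Csf2. It was 0.0943 for Csf2ra.

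**Figure D1:**
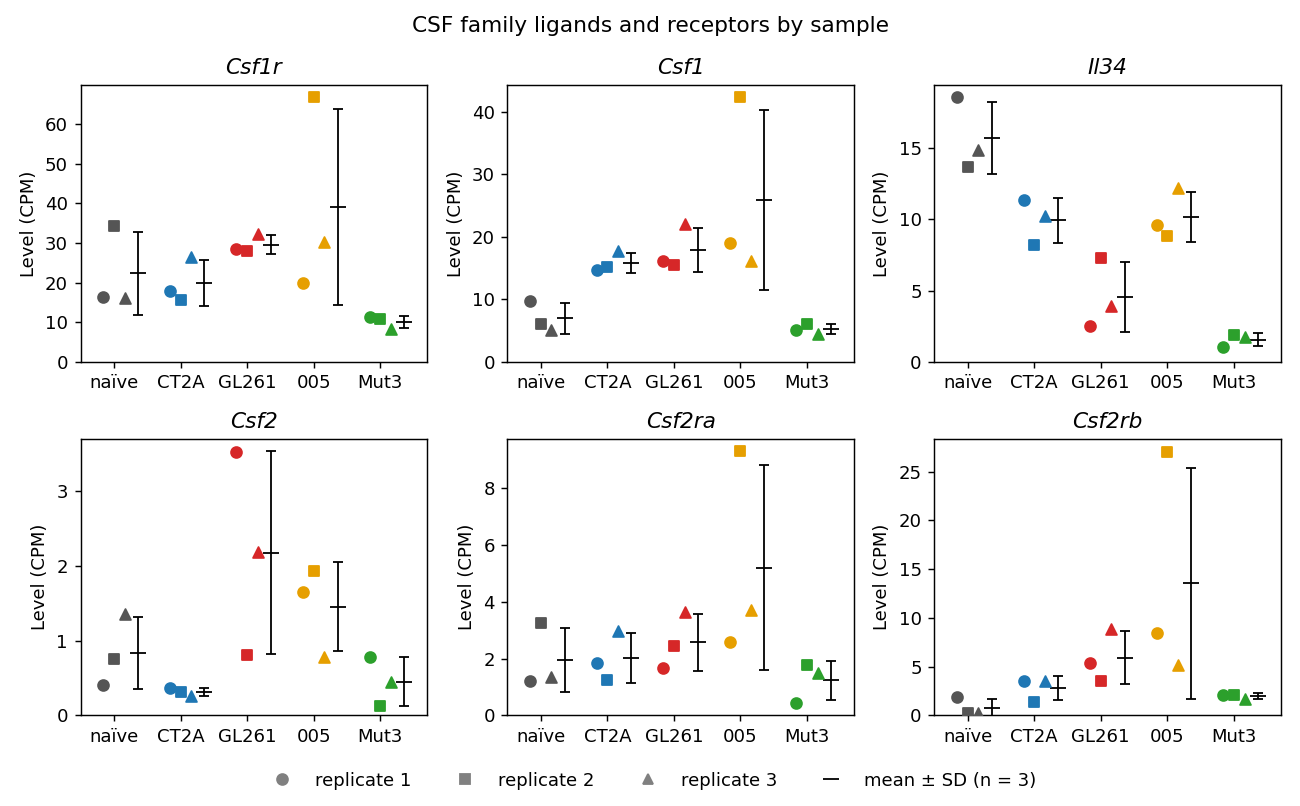
Level of each member in every sample (y axis, CPM, starting at 0) by group (x axis). Each point is 1 mouse, its shape gives the replicate number, and the black bar is the mean ± SD of 3 mice. Csf1 was above all naïve samples in CT2A, GL261 and 005, Il34 was below all naïve samples in every tumor, and 005 replicate 2 was the highest sample for Csf1r, Csf1, Csf2ra and Csf2rb.

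No difference of the receptor Csf1r from naïve brain was called in CT2A, GL261 or 005, and its level was lowest in Mut3. Its levels were 16.3, 34.4 and 16.2 CPM in naïve brain, 17.8, 15.5 and 26.5 CPM in CT2A, and 28.4, 28.0 and 32.4 CPM in GL261. They were 19.8, 67.0 and 30.3 CPM in 005 and 11.2, 10.7 and 8.27 CPM in Mut3. The Mut3 samples were below all the other 12 samples, whereas CT2A, GL261 and 005 overlapped with naïve brain. The estimated counts behind these levels ran from 59.7 to 555.

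By mean, the order for Csf1r was 005 (39.0 ± 24.8 CPM, SD, n = 3), GL261 (29.6 ± 2.44), naïve brain (22.3 ± 10.45), CT2A (19.9 ± 5.78) and Mut3 (10.05 ± 1.56). No neighbouring groups in that order differed by a call, and 005 was first through its replicate 2. Without that library GL261 was above 005 by 0.24 on the log2 scale, and the change in 005 against naïve brain was 0.18. Against naïve brain, Csf1r fell by 1.15 on the log2 scale in Mut3 (SE 0.43, adjusted p = 0.0467, edgeR). That call rested on naïve replicate 2, since without it the change was −0.52 (adjusted p = 0.361). It was also lost in 9 of the other 14 fits that left out 1 library, and with the replicate number as a block (−1.07, adjusted p = 0.0639). The log2 fold change was −0.16 in CT2A (95% interval −1.07 to 0.75), 0.41 in GL261 (−0.50 to 1.32) and 0.81 in 005 (−0.11 to 1.72), none of them called. Without naïve replicate 2, the highest naïve library, the changes were 0.50 in CT2A, 1.01 in GL261 and 1.36 in 005, again not called.

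Csf1 was the member that rose in most tumor models. Its levels were 9.79, 5.98 and 5.14 CPM in naïve brain, 14.7, 15.2 and 17.7 CPM in CT2A, and 16.2, 15.5 and 22.0 CPM in GL261. In 005 they were 19.0, 42.4 and 16.2 CPM, and in Mut3 5.15, 6.04 and 4.40 CPM. All 9 samples of CT2A, GL261 and 005 were above all naïve and all Mut3 samples, and naïve brain and Mut3 overlapped.

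The mean of Csf1 was 25.8 ± 14.4 CPM in 005, 17.9 ± 3.55 in GL261, 15.9 ± 1.62 in CT2A, 6.97 ± 2.48 in naïve brain and 5.19 ± 0.822 in Mut3 (SD, n = 3). Only CT2A and naïve brain were neighbours in this order that differed by a call. Csf1 rose 2.26-fold in CT2A (log2 fold change 1.177, SE 0.39, adjusted p = 0.0273), 2.55-fold in GL261 (1.35, SE 0.39, adjusted p = 0.0255) and 3.68-fold in 005 (1.88, SE 0.40, adjusted p = 0.00714). The value in Mut3 was −0.43 (95% interval −1.28 to 0.41, not called).

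The call in CT2A was lost without naïve replicate 3 (adjusted p = 0.0907) or CT2A replicate 3, and that in GL261 without naïve replicate 2, naïve replicate 3 or GL261 replicate 3 (adjusted p up to 0.101). On the log2(TPM + 1) scale the change of Csf1 was 0.13 in CT2A and 0.34 in GL261, neither called. TPM moved the median of all tested genes against naïve brain on the log2 scale by −0.31 (005), −0.37 (Mut3), −0.47 (GL261) and −0.51 (CT2A), whereas TMM left it between −0.04 and 0.13. With 0.1 added in place of 1, the changes of Csf1 were 0.25 and 0.56, again not called, and what makes these scales differ was not tested. In 005 the call held in all 15 fits that left out 1 library (adjusted p at most 0.0444), with 1.33 without 005 replicate 2 and 2.05 without 005 replicate 3, but with only naïve brain and 005 fitted the change was 1.96 with an adjusted p of 0.0870.

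Il34, the second ligand, was highest in naïve brain. Its levels were 18.6, 13.7 and 14.9 CPM in naïve brain, 11.4, 8.23 and 10.2 CPM in CT2A, and 2.49, 7.27 and 3.88 CPM in GL261. They were 9.58, 8.81 and 12.2 CPM in 005 and 1.01, 1.89 and 1.76 CPM in Mut3. All 12 tumor samples were below all 3 naïve samples, and all Mut3 samples were below all other tumor samples.

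The mean of Il34 was 15.7 ± 2.54 CPM in naïve brain, 10.2 ± 1.76 in 005, 9.93 ± 1.58 in CT2A, 4.55 ± 2.46 in GL261, and 1.55 ± 0.476 (SD, n = 3 each) for Mut3. Of the neighbours in this order, GL261 and Mut3 differed by a call. Il34 fell by 3.33 on the log2 scale in Mut3 (10.04-fold lower, SE 0.43, adjusted p = 2.10e-04), under every setting that tested it. It fell by 1.78 in GL261 (3.44-fold lower, SE 0.41, adjusted p = 0.00780), a call lost without GL261 replicate 1 (adjusted p = 0.0547). In CT2A the value was −0.66 (95% interval −1.49 to 0.17) and in 005 −0.62 (−1.45 to 0.21), neither called by edgeR. On the log2(TPM + 1) scale with limma both were called, at −1.49 (adjusted p = 0.00474) and −1.12 (adjusted p = 0.0365).

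Beside Il34, the markers of neurons, its main known source in brain, changed as well. All 7 neuron markers fell in CT2A and in Mut3, and 0 of 7 were called by edgeR in GL261 or 005 (unadjusted p under 0.05 for 6 and 2, and 5 and 1 called by DESeq2), where their median log2 fold changes were −2.06 and −1.83 against −0.08 and 0.01 for all tested genes. Their summed level was 4295 to 5994 CPM in naïve brain, 626 to 1885 in GL261, 167 to 3437 in 005, 156 to 919 in CT2A and 41.5 to 114 in Mut3. In 005 the sum was 621, 167 and 3437 CPM in replicates 1, 2 and 3, and replicate 3 was the library nearer to naïve brain. The ratio of Il34 to this sum was 0.00248 to 0.00376 in naïve brain, 0.00386 to 0.00397 in GL261, 0.00354 to 0.0527 in 005, 0.0124 to 0.0527 in CT2A and 0.0161 to 0.0243 in Mut3. In CT2A and Mut3, Il34 was thus nearer to its naïve level than the neuron markers were. The same held in 005 replicates 1 and 2 (0.0154 and 0.0527), whereas 005 replicate 3 (0.00354) lay within the naïve range. In GL261 the ratio was only slightly above that in naïve brain. Without 005 replicate 3 the log2 fold change of Il34 in 005 against naïve brain was −0.84, again not called. The part of the neuron markers in the change of Il34 was not tested.

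**Figure D2:**
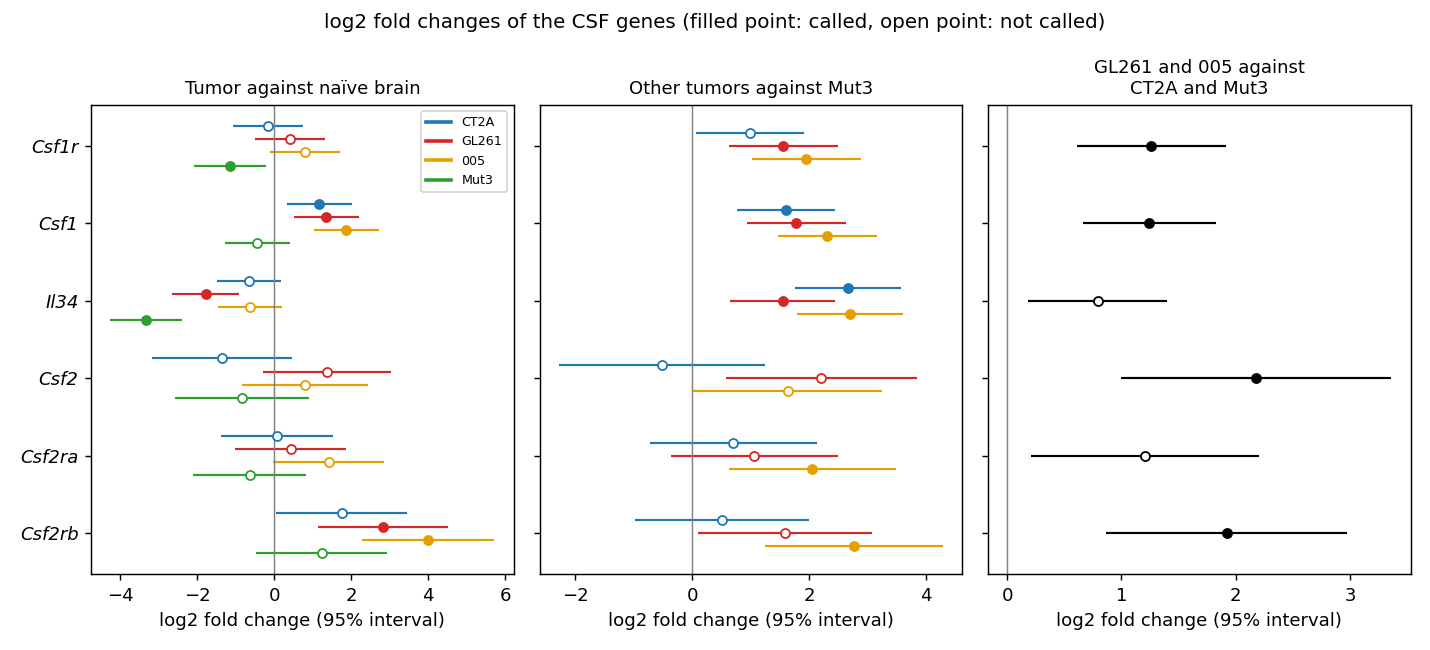
Log2 fold change of each member (x axis, with its 95% interval) for tumors against naïve brain, for the other tumors against Mut3, and for the active against the inert models (GL261 and 005, CT2A and Mut3). Filled points were called and open points were not, with Csf1 called in 3 tumors and Il34 in 2 against naïve brain.

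The 2 ligands of CSF1R were compared within a sample in TPM, which is scaled to gene length, so that their ratio does not depend on the normalization between samples. On this scale Il34 exceeded Csf1 in all 15 samples, an order that depends on the gene lengths used for TPM. In naïve replicate 1, estimated counts of 90.9 for Il34 and 47.5 for Csf1 stood for 21.01 and 1.48 TPM. In CPM, which is not scaled to gene length, Csf1 was above Il34 in all 12 tumor samples and below it in all 3 naïve samples. Csf1 was 1.48, 1.26 and 0.672 TPM in naïve brain against 21.01, 21.8 and 14.6 TPM for Il34. The ratio of Csf1 to Il34 was 0.0459 to 0.0704 in naïve brain, 0.173 to 0.249 in CT2A, 0.179 to 0.652 in 005, 0.348 to 0.665 in Mut3 and 0.286 to 0.910 in GL261. All 12 tumor samples were above all 3 naïve samples. In Mut3 the ratio was higher although Csf1 itself, at 0.475, 0.575 and 0.406 TPM, was below its naïve levels on this scale. In CPM the Mut3 and naïve samples of Csf1 overlapped. The sum of both ligands was 15.3 to 23.0 TPM in naïve brain and 1.19 to 1.95 TPM in Mut3, and the other tumors lay between 2.63 and 16.02 TPM. In TPM, Il34 was the larger part of this sum in every sample, which rests on the same lengths. TPM also lowered the median of all tested genes in every tumor against naïve brain. In CPM, Csf1 was above and Il34 below all naïve samples in CT2A, GL261 and 005. The sum was not formed in CPM.

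**Figure D3:**
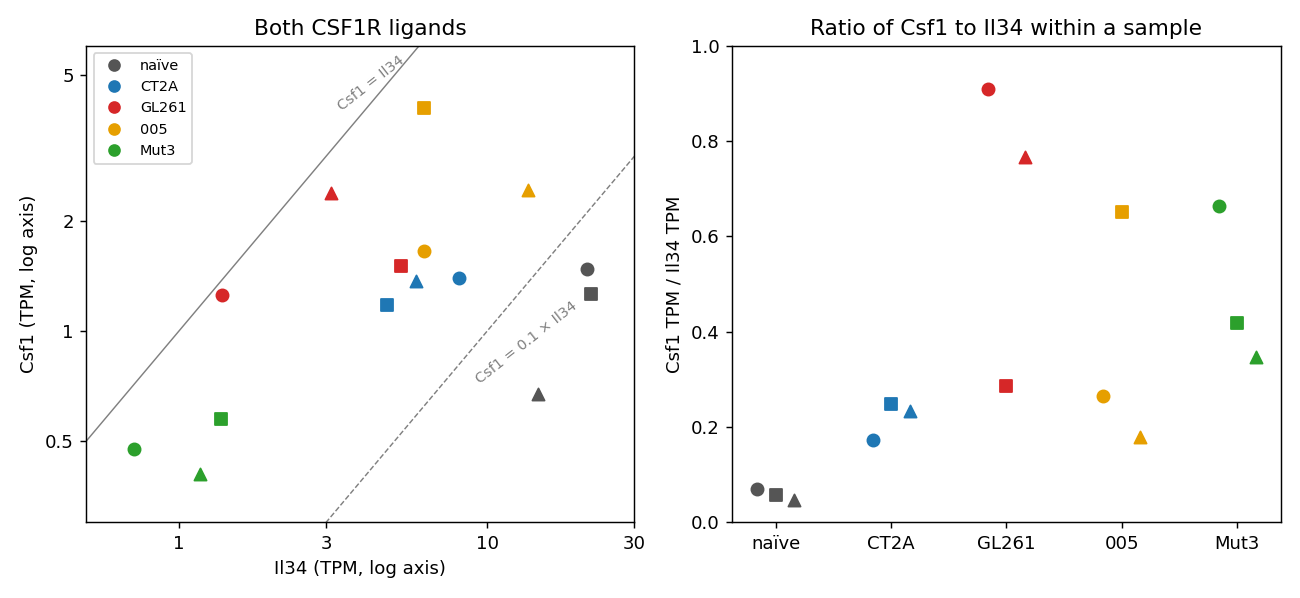
Left, Csf1 against Il34 in TPM (both log axes), 1 point per mouse, with lines at equal levels and at a ratio of 0.1. Right, the ratio of Csf1 to Il34 in TPM in each sample by group, with shapes for replicates 1 (circle), 2 (square) and 3 (triangle). Naïve brain lies under 0.1 and every tumor sample above it, and no sample reaches 1.

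Csf2 had few counts in all libraries and was under 3 counts in 6 of the 15. Its estimated counts were 1.98, 2.64 and 5.36 in naïve brain, 6.84, 1.13 and 4.73 in Mut3, 2.76, 1.94 and 1.72 in CT2A, 16.6, 5.31 and 17.7 in GL261, and 16.3, 15.5 and 11.3 in 005. All CT2A libraries were under 3 counts. In CPM, GL261 had 3.52, 0.808 and 2.18, 005 had 1.65, 1.93 and 0.783, and Mut3 had 0.783, 0.126 and 0.440. No difference from naïve brain was called, with intervals from −0.28 to 3.03 in GL261 and −0.84 to 2.45 in 005 on the log2 scale.

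Csf2ra, the alpha chain of the CSF2 receptor, overlapped between each tumor and naïve brain and was not called in any of these comparisons. Its levels were 1.22, 3.24 and 1.35 CPM in naïve brain, 2.58, 9.30 and 3.70 CPM in 005, and 0.448, 1.76 and 1.495 CPM in Mut3, with CT2A and GL261 between 1.24 and 3.64 CPM. The estimate was largest in 005, at a log2 fold change of 1.41 (95% interval −0.02 to 2.85), and 005 replicate 2 was far above the other 2 mice of that group.

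Csf2rb, the beta common chain, rose in GL261 and 005, and whether it was called in CT2A and Mut3 depended on 1 naïve library. Its levels were 1.84, 0.249 and 0.270 CPM in naïve brain, where replicates 2 and 3 had about 1 count each. They were 3.54, 1.40 and 3.49 CPM in CT2A, 5.39, 3.56 and 8.86 CPM in GL261, 8.45, 27.0 and 5.13 CPM in 005 and 2.13, 2.14 and 1.67 CPM in Mut3. All samples of GL261 and 005 were above all samples of the other 3 groups, although the lowest GL261 sample (3.56 CPM) was close to the highest of CT2A (3.54 CPM). In naïve replicates 1, 2 and 3, Csf2rb had 8.75, 1.10 and 0.960 counts and its paralog Csf2rb2 had 0.969, 5.46 and 1.92. How reads were split between both genes in these libraries was not tested.

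The log2 fold change of Csf2rb against naïve brain was 2.82 in GL261 (SE 0.79, adjusted p = 0.0217) and 4.00 in 005 (SE 0.81, adjusted p = 0.00548). The low naïve counts make these sizes imprecise, with 95% intervals of 1.13 to 4.52 and 2.28 to 5.72. Without naïve replicate 1, the naïve library with the highest level, the changes were 4.44 and 5.62, and Csf2rb was also called in CT2A (3.37, adjusted p = 0.0222) and Mut3 (2.85, adjusted p = 0.0438). Without 005 replicate 2 the change in 005 was 3.02. The call in GL261 was lost without naïve replicate 2, naïve replicate 3 or GL261 replicate 3, and that in 005 with only naïve brain and 005 fitted (adjusted p = 0.0667). The paralog Csf2rb2 rose in 005 (3.43, SE 0.79, adjusted p = 0.0110), and its value in GL261 was 1.97 (adjusted p = 0.0777). With the counts of both genes summed, a setting chosen after seeing the data, the changes were 2.52 in GL261 and 3.80 in 005, and CT2A was called too, at 1.69 (adjusted p = 0.0450) against 1.75 (adjusted p = 0.0889) for Csf2rb alone.

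Of the 6 members, 1 was called in CT2A against naïve brain, 3 in GL261, 2 in 005 and 2 in Mut3. Of all tested genes, 39.2%, 22.4%, 12.7% and 37.8% were called in these comparisons. Samples of the tumor and of naïve brain did not overlap for 3, 3, 3 and 2 members, and for 56.3%, 47.8%, 27.5% and 53.3% of all tested genes. The share of members called was thus below that of all genes in CT2A and near or above it in the others, and with 6 genes these shares are coarse.

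Next, the tumor models were compared with each other. Mut3 had the lowest mean of the 4 tumors for each member except Csf2, which was lowest in CT2A (0.312 ± 0.0540 CPM against 0.450 ± 0.329 in Mut3, SD, n = 3) without a call between them. Of 36 tests over 6 pairs of tumors and 6 members, 10 were called, all of them higher in the other tumor than in Mut3, against 10.7% of tests over all genes. In the pairs with Mut3 alone, 12.8% (CT2A), 17.2% (GL261) and 19.8% (005) of all tested genes were called. Samples did not overlap with those of Mut3 for 3 members in CT2A, 5 in GL261 and 6 in 005, and for 39.1%, 43% and 34.1% of all tested genes. Between CT2A, GL261 and 005, 0 of the 18 tests was called by edgeR, 6 had an unadjusted p under 0.05 and DESeq2 called 3. Of all tested genes, edgeR called 7.77% between CT2A and GL261, 4.11% between CT2A and 005 and 2.62% between GL261 and 005, so a count of 0 among 18 is near this background. The DESeq2 calls were Il34, higher in CT2A than in GL261 (log2 fold change 1.177, adjusted p = 0.0268), and Csf2 in CT2A against GL261 (−2.75, adjusted p = 0.0330) and Csf2rb in CT2A against 005 (−2.22, adjusted p = 0.0202).

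Csf1 was 3.05-fold higher in CT2A, 3.44-fold in GL261 and 4.96-fold in 005 than in Mut3 (adjusted p = 0.0142, 0.00837 and 0.00222), and all samples of each were above all Mut3 samples. Il34 was 6.35-fold higher in CT2A, 2.92-fold in GL261 and 6.52-fold in 005 (adjusted p = 0.00105, 0.0224 and 0.00135). The calls for CT2A and 005 held without any 1 library, but that for GL261 was lost without GL261 replicate 2 (adjusted p = 0.125) or Mut3 replicate 1. The call of Csf1 in CT2A against Mut3 was lost without CT2A replicate 3 (adjusted p = 0.0510).

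Csf1r was 2.94-fold higher in GL261 (adjusted p = 0.0250) and 3.88-fold in 005 (adjusted p = 0.00832) than in Mut3, the latter with a log2 fold change of 1.96 that was 1.32 without 005 replicate 2. Its log2 fold change in CT2A was 0.99 (95% interval 0.07 to 1.91, not called). The GL261 call was lost in 5 fits that left out 1 library of GL261 or Mut3. For the CSF2 receptor, 005 exceeded Mut3 in Csf2ra (log2 fold change 2.05, adjusted p = 0.0423) and Csf2rb (2.76, adjusted p = 0.0158). Without 005 replicate 2 these were 1.34 (adjusted p = 0.194) and 1.77 (adjusted p = 0.0817), so neither call held without that library. The call of Csf2ra was lost in 8 of the 15 fits that left out 1 library, among them those without 005 replicate 3 (2.19, adjusted p = 0.0507), without any 1 of the Mut3 libraries, and without CT2A replicate 1 or GL261 replicate 2 or 3. That of Csf2rb was lost in 3 of the 15, the others being without Mut3 replicate 1 or 3, and it held without 005 replicate 3 (3.099, adjusted p = 0.00644).

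The study describes GL261 and 005 as immunologically active and CT2A and Mut3 as inert, and based this split on the RNA sequencing, so a difference in immune genes between the groups is not independent of it. Of the 6 members, 4 were called, all with the higher level in the active models, against 16.9% of all tested genes called and 12.6% called higher. Csf1r rose by 1.26 on the log2 scale (SE 0.30, adjusted p = 0.0116), Csf1 by 1.24 (SE 0.27, adjusted p = 0.00748), Csf2 by 2.18 (SE 0.55, adjusted p = 0.0145) and Csf2rb by 1.92 (SE 0.49, adjusted p = 0.0155). Il34 (0.79, adjusted p = 0.0600) and Csf2ra (1.21, adjusted p = 0.0788) were not called. By edgeR, no member was called between CT2A and GL261 or between CT2A and 005. For Csf1, CT2A was near GL261 (log2 fold change −0.17, adjusted p = 0.809, edgeR). Within the inert class it was above Mut3 (1.61, adjusted p = 0.0142, edgeR). For Csf1r, Csf2 and Csf2rb, CT2A and Mut3 did not differ by a call. The p-values measure the spread between mice and not that between lines of a class.

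For Csf2 and Csf2rb, all 6 samples of GL261 and 005 were above all 6 of CT2A and Mut3, a separation seen in 3.91% of all tested genes. For Csf2 the margin was nil in practice, since 005 replicate 3 and Mut3 replicate 1 both had 0.783 CPM. For Csf1r and Csf1 the groups overlapped, and without 005 replicate 2 their changes were 0.94 and 0.97, under 2-fold. The calls of Csf2 and Csf2rb held without any 1 library, with adjusted p up to 0.0440 and 0.0469. Without 005 replicate 2 the change of Csf2rb was 1.42, and without 005 replicate 3 those of Csf2 and Csf2rb were 2.28 and 2.07. None of the 4 was called on the log2(TPM + 1) scale, where values near or under 1 TPM are compressed, and with 0.1 added in place of 1 all 4 were.

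The genes around the receptor were described from lists. Of 13 adaptors and kinases that act downstream of CSF1R, 12 were tested. Of these, 8 rose in 005, 7 in GL261, 5 in CT2A and 2 in Mut3 against naïve brain, and 1 fell, in Mut3. In the same order the median log2 fold changes were 2.37, 1.93, 1.00 and 0.09, against 0.01, −0.08, −0.04 and 0.11 over all tested genes. Tyrobp (DAP12), an adaptor of myeloid receptors, changed by 1.52 in CT2A, 2.50 in GL261 and 2.38 in 005, all called, and had 0.13 in Mut3. Lyn, a SRC family kinase of blood cells, changed by 1.30, 1.48 and 1.85 in the same tumors, all called, and had 0.05 in Mut3. Csf1r itself was not called in CT2A, GL261 or 005 while these partners were, and whether its change differs from theirs was not tested.

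Of 8 macrophage transcription factors, 1 rose and 1 fell in CT2A, 3 rose and 1 fell in GL261, 4 rose in 005, and 1 rose and 2 fell in Mut3. The counts in CT2A and Mut3 were not above the share of all tested genes called there (39.2% and 37.8%). Spi1, which encodes PU.1, a main activator of Csf1r in macrophages, was not called against naïve brain in any tumor. GL261 and 005 exceeded CT2A and Mut3 in Spi1 (log2 fold change 1.69, SE 0.54, adjusted p = 0.0376). Irf8, a factor of microglia and monocytes, rose by 3.57 in GL261 and 3.07 in 005. Runx1 rose in all 4 tumors, by 2.73 in Mut3, 3.28 in GL261, 4.62 in 005 and 5.42 in CT2A, and Maf fell in CT2A and Mut3.

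The other known receptors for IL-34 moved in different directions. Syndecan-1 (Sdc1) rose by 4.14 on the log2 scale in CT2A, 3.39 in 005 and 3.40 in Mut3, and had 1.86 in GL261 (adjusted p = 0.107). Ptprz1, a receptor phosphatase of glia, fell by 2.19 in CT2A. Against Mut3 its log2 fold change was −3.53 in CT2A (adjusted p = 0.00496) and −2.12 in 005 (adjusted p = 0.0374). In Mut3, where Il34 was lowest, Ptprz1 had 1.34 against naïve brain (adjusted p = 0.117).

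Among receptors of the same class as CSF1R and their ligands, 5 of 6 listed genes were found and tested. In CT2A, Pdgfra (1.52) and Pdgfrb (1.98) rose and Kit fell by 3.41, and in Mut3 Kit fell by 3.94 and its ligand Kitl by 2.33. EdgeR and DESeq2 called 0 of the 5 in GL261 and in 005 against naïve brain, with an unadjusted p under 0.05 for 0 and 2.

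Of the JAK2 and STAT5 genes that carry the CSF2 signal, all 8 were tested. The feedback inhibitors Socs1 and Socs3 rose in CT2A, GL261 and 005, Socs3 by 2.18, 3.26 and 3.102. In Mut3, Stat5a rose by 3.88 and Cish, a target of STAT5, fell by 2.75. Of 7 other cytokines and receptors related to CSF2, 2 passed the filter. These were Csf2rb2 and Csf3r, the G-CSF receptor, which rose by 2.63 in GL261 and 2.61 in 005.

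Markers of the cells that carry CSF1R were set beside its level. Of 9 microglia genes, 3 fell in CT2A, 2 rose in GL261 and 5 fell in Mut3, and in 005 edgeR called 0 (unadjusted p under 0.05 for 2, and 0 by DESeq2), with summed levels of 246 to 299 CPM in naïve brain, 91.4 to 124 in Mut3, 176 to 241 in CT2A, 259 to 384 in 005 and 337 to 456 in GL261. The count in CT2A was below the share of all tested genes called there (39.2%), and that in GL261 was near it (22.4%). Of 11 monocyte and macrophage genes, 11 rose in 005, 10 in GL261, 9 in CT2A and 1 in Mut3, where 1 fell. Their sums were 78.2 to 135 CPM in naïve brain, 73.7 to 232 in Mut3, 339 to 554 in CT2A, 515 to 1699 in 005 and 722 to 1398 in GL261. Mut3, the tumor with the lowest Csf1r, had the lowest microglia sum, and its macrophage sum overlapped with that of naïve brain.

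Within a sample, the ratio of Csf1r to the summed microglia genes was 0.0543 to 0.140 in naïve brain and 0.0613 to 0.251 over all tumor samples, and each tumor overlapped with naïve brain. The naïve values were 0.0639, 0.140 and 0.0543 in replicates 1, 2 and 3. All tumor samples except GL261 replicate 2 (0.0613) were above naïve replicates 1 and 3. Against P2ry12 alone, a receptor of homeostatic microglia, it was 0.271 to 1.08 in naïve brain, 0.828 to 2.45 in GL261, 0.798 to 7.40 in 005, 1.43 to 3.53 in CT2A and 1.49 to 5.88 in Mut3. All samples of CT2A and Mut3 were thus above all naïve samples in this ratio, and GL261 and 005 overlapped with naïve brain. That overlap was with naïve replicate 2 (1.08), since every tumor sample was above naïve replicates 1 and 3 (0.271 and 0.282).

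The ratio of Csf1r to Ptprc, which encodes the leukocyte antigen CD45, was 3.64 to 19.7 in naïve brain, 0.746 to 4.72 in Mut3, 0.415 to 0.912 in CT2A, 0.332 to 0.742 in GL261 and 0.257 to 0.605 in 005. All samples of CT2A, GL261 and 005 were below all naïve samples, and Mut3 overlapped with naïve brain. Against the summed monocyte and macrophage genes the ratio was 0.120 to 0.439 in naïve brain and 0.0203 to 0.0589 in CT2A, GL261 and 005. The ratio of Csf1r to the summed microglia genes thus overlapped between naïve brain and every tumor, in CT2A, 005 and Mut3 only through naïve replicate 2. That to P2ry12 separated CT2A and Mut3 from naïve brain. Those to the leukocyte genes separated 3 of the 4 tumors from naïve brain. The shares of cell types in these ratios were not tested.

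**Figure D4:**
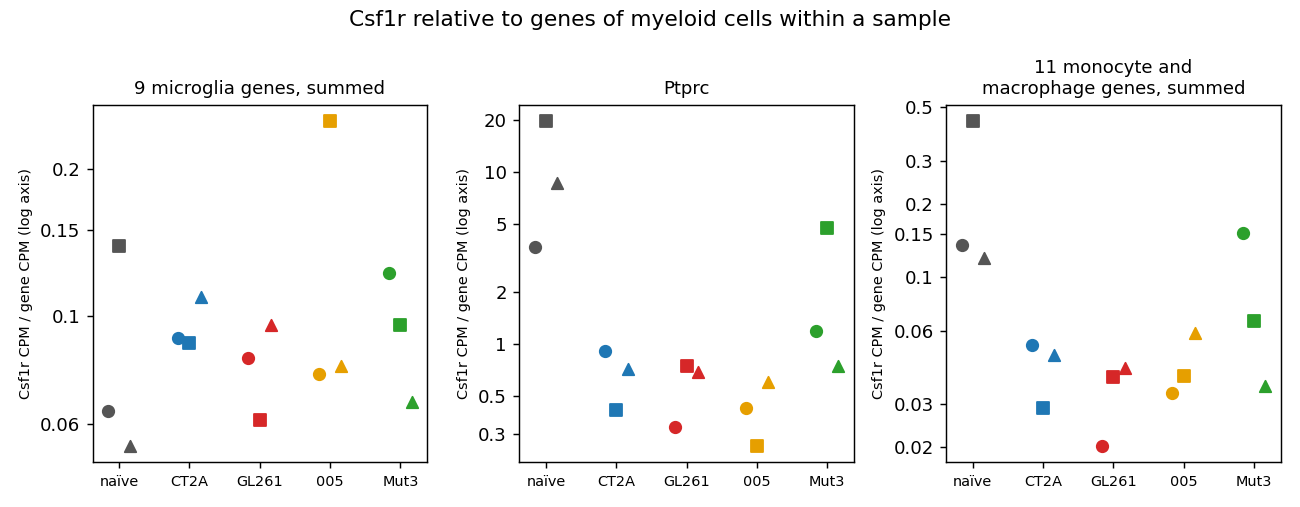
Ratio of Csf1r to 9 microglia genes, to Ptprc and to 11 monocyte and macrophage genes in each sample (y axes, log scale, ratio of CPM) by group (x axes), with shapes for replicates 1 (circle), 2 (square) and 3 (triangle). The groups overlap for the summed microglia genes, where naïve replicate 2 is above the other naïve samples. CT2A, GL261 and 005 lie below naïve brain for Ptprc and for the monocyte and macrophage genes.

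Other white blood cell markers that could bear on Csf2 and its receptor were low. The summed T and NK cell genes were 3.26 to 28.6 CPM in naïve brain, 3.80 to 11.9 in Mut3, 14.2 to 20.9 in CT2A, 35.1 to 44.2 in GL261 and 28.3 to 170 in 005, with Cd3d and Cd8a called higher than in naïve brain in CT2A, GL261 and 005 and Cd4, which microglia can also express, called lower in CT2A (−2.76) and Mut3 (−2.91). The summed dendritic cell genes were 6.48 to 10.2 CPM in naïve brain, 8.28 to 8.81 in Mut3, 5.62 to 10.2 in CT2A, 15.2 to 22.9 in GL261 and 16.1 to 59.2 in 005. The granulocyte genes summed to 11.5 to 18.9 CPM in naïve brain, 12.2 to 18.8 in GL261, 27.1 to 36.2 in CT2A, 27.5 to 53.2 in Mut3 and 28.4 to 66.9 in 005, so that CT2A, Mut3 and 005 lay above all naïve samples and GL261 did not, with up to 5 of the 8 at 0 in a naïve library. GL261 and 005, where Csf2 and Csf2rb were highest, were the groups with the highest T cell and dendritic cell sums in the median, and the part of these cells was not tested.

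Over all 15 samples, the genes most like each member in log2 CPM were found among 8937 genes with a mean log2 CPM of at least 3. These correlations are descriptions, since the samples share groups and depth. For Csf1r the first genes were Znfx1 (Pearson r = 0.936), Acsl5 (0.928), Gm8995 (0.909), Rnf114 (0.889) and Selplg (0.878). For Csf1 they were Lyn (0.939), Tab2 (0.930), Laptm5 (0.917), Btg1 (0.914) and Pycard (0.914). Lyn, Laptm5, Selplg and Pycard are genes of white blood cells.

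Il34 had another company, with Rbfox2 (r = 0.960), Pde1a (0.946), Hpcal1 (0.943), Nsd1 (0.942) and Ociad2 (0.938). Among the genes most like Csf2rb were Ptpn6 (0.913), Wfdc17 (0.896), Mpeg1 (0.892) and Lyn (0.877), all expressed by myeloid cells. For Csf2ra the first were Gm8995 (0.891), Shisa5 (0.875), Cmtm6 (0.850), Csf1r itself (0.836) and Il10rb (0.816). For Csf2, with few counts, they were Pacsin2 (0.853), Rnf114 (0.836), Phlda1 (0.826), Gm42830 (0.826) and Rc3h2 (0.819).

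Between members, r over the 15 samples was 0.836 for Csf1r and Csf2ra, 0.833 for Csf1 and Csf2rb and 0.763 for Csf1r and Csf1. Il34 had 0.447 with Csf1r, 0.323 with Csf1 and −0.118 with Csf2rb. Over the 12 tumors alone, r was 0.930 for Csf1r and Csf1 and 0.741 for Csf1 and Il34, where Mut3 is low in all 3 genes. The receptor and Csf1 thus followed each other over the tumors, and Il34 stood apart from both once naïve brain was included.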

How the data were processed

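RNA was extracted from tissue of 15 mice (5 groups of 3) and sequenced from total RNA. The authors aligned reads with STAR 2.4.2a to the GENCODE mouse genome and deposited estimated counts per gene, without normalization between samples, and TPM values. The submitters' processing notes also name Salmon, DESeq2 1.18.1 and mm10. The quantifier's role, the annotation release and the test are not given in the sources used here. Gene IDs matched GENCODE M21 for 46201 of 46679 genes.

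Estimated counts were rounded, and edgeR 4.0.16 in R 4.3.3 was used for testing (filterByExpr, TMM, quasi-likelihood test over all samples, no covariate). Calls needed an adjusted p under 0.05 and 2-fold. Alternatives were DESeq2 1.42.0, library size, other filters, only the samples compared, limma 3.58.1 on log2(TPM + 1) and log2(TPM + 0.1), a replicate block, and each library left out. The steps were tested on simulated counts, where changes of 2-fold were seldom called and those of 4-fold or more were missed more often than called. A missing call thus does not show equal levels. Samples were grouped by label. P-values measure the spread between mice.

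The members and lists were chosen with earlier results of these data known. Genes named are the 6 members, the 5 genes most like each, and at most 4 per list, first by mean CPM among those called, with genes set beside a member. Some genes that these rules name are not reported here. Of 102 other listed genes, 101 were found.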

Additional observations from a re-analysis of the deposited data

Results flagged for a closer look

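The 10 differences between tumors below are those in which the effect of a tumor on a member differed between 2 models by a test of the difference itself (edgeR, adjusted over all tested genes). All had Mut3 as the lower model, and all 3 samples of the other tumor were above all 3 of Mut3. Of all tested genes, 39.1% (CT2A), 43% (GL261) and 34.1% (005) also did not overlap with Mut3, in either direction. On the log2 scale Csf1r was 1.56 higher in GL261 and 1.96 in 005, and Csf1 was 1.61 higher in CT2A, 1.78 in GL261 and 2.31 in 005. Il34 was 2.67 higher in CT2A, 1.55 in GL261 and 2.70 in 005. Csf2ra and Csf2rb were 2.05 and 2.76 higher in 005.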

How the results depend on the processing

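Counts of called members moved under several settings. In CT2A against naïve brain, 1 became 0 with library size or no filter, and 2 with log2(TPM + 0.1) or with Csf2rb and Csf2rb2 summed (chosen after seeing the data), and 0 to 2 with a library left out. In GL261, 3 became 1 with at least 10 counts in every sample (2 members tested) or log2(TPM + 1), and 1 to 3 with a library left out. In 005, 2 became 1 under the same settings and 0 with only the samples compared (5 members tested). In Mut3, 2 became 1 with library size, no filter, at least 10 counts or the replicate block, and 1 to 3 with a library left out. Over the pairs of tumors, 10 became 5 with at least 10 counts (12 tests) and 3 with log2(TPM + 1), and 6 to 11 with a library left out. For GL261 and 005 against CT2A and Mut3, 4 became 2 with at least 10 counts and 0 with log2(TPM + 1), and 2 to 4 with a library left out, the 2 being without 005 replicate 2. For the 5 groups, 5 became 2 with at least 10 counts and 4 to 5 with a library left out. Fewer members were tested at 10 counts, and the cause was not tested for the others. DESeq2 gave counts within 1.5 times of these throughout.

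Values that changed sign were not called before or after. Csf1r in GL261 against naïve brain was −0.25 with log2(TPM + 1) and −0.30 with log2(TPM + 0.1). Csf2ra in CT2A was −0.21 with library size, −0.42 and −0.76 on those scales, and in GL261 −0.18 and −0.28. Il34 in CT2A against 005 was 0.017 with DESeq2. With a library left out, Csf1r ranged from −0.41 to 0.50 in CT2A against naïve brain and from −0.72 to 0.24 in GL261 against 005. Csf1 ranged from −0.27 to 0.045 in CT2A against GL261 and from −0.78 to 0.027 in GL261 against 005, and Il34 from −0.14 to 0.14 in CT2A against 005. Csf2 ranged from −0.93 to 0.14 in CT2A against Mut3. Csf2ra ranged from −0.31 to 0.85 in CT2A and −0.95 to 0.13 in Mut3 against naïve brain, and from −0.74 to 0.022 in CT2A against GL261.

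Of all calls, the share higher than naïve brain after TMM was 91.7% (005), 65.3% (GL261), 48.4% (CT2A) and 47.5% (Mut3), and in the same order 27.6%, 22.3%, 19.0% and 19.97% with log2(TPM + 1). Samples that share a replicate number are different mice and did not deviate together (median r −0.020 over 30 pairs, 1 of them above 0.1). The replicate block ended the call of Csf1r in Mut3 against naïve brain (−1.07, adjusted p = 0.0639) and no other call of a member. Depth limits Csf2 and the naïve level of Csf2rb most, at or near 3 counts.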
